A study of Mus musculus with 96 samples.

Results

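The guanylate-binding proteins are described here across forebrain, cerebellum, liver and kidney of undisturbed and sleep-deprived mice. The 8 genes Gbp2, Gbp3, Gbp4, Gbp5, Gbp6, Gbp7, Gbp8 and Gbp9 were taken from the 54833 rows of the count table by matching their Ensembl identifiers to GENCODE M21 symbols. They were selected on the difference in CPM between sleep-deprived and undisturbed libraries. That difference is therefore given for them as a description. The counts of members past a threshold in it are printed with nothing read from them. Tests are given for the levels between organs, for the time of day in undisturbed mice and for the agreement of libraries across organs, none of which used the sleep-deprived contrast.

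Guanylate-binding proteins are large GTPases that cells make in response to interferons, above all interferon-gamma. They assemble on pathogen vacuoles and on free bacteria, help to break these open, and pass their contents to the inflammasomes that start lytic cell death. Mice carry them in a pair of gene clusters, and resting tissues keep a basal level that follows the tone of interferon signalling.

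Total RNA depleted of ribosomal RNA was sequenced from 96 libraries of male wild-type C57BL/6 mice aged 6 to 8 weeks. The mice were kept in a 12 h light and 12 h dark cycle and then in constant darkness. Control (CON) mice were left undisturbed. Sleep-deprived (SD) mice spent 10 h of their rest phase in a slowly rotating drum. Each organ has 2 libraries per condition at circadian times CT4, CT8, CT12, CT16, CT20 and CT24, which gives 12 CON and 12 SD libraries per organ. The study's reporting summary describes the 2 libraries of a group as biological replicates. It does not state whether each came from a single mouse or a pool, so that p-values cover the spread between libraries. Values are CPM, a gene's count as a share of the library's total, scaled to the same total in every library. Library totals ran from 24.76 M to 58.49 M counts. Whole organs were sequenced, so that fewer cells of a type and less RNA per cell cannot be told apart.

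Groups follow the sample titles. In 20 of the 24 kidney libraries the title disagreed with the other label fields about the condition or the time, in 10 of them about the condition. No library of the other organs had such a conflict. At CT24 both fields give the same condition for the kidney libraries, and the values at that time are set out separately. The cerebellum library of CON CT8 replicate 1 stood apart from the rest. Differences between SD and CON averaged over time, differences between forebrain and cerebellum, and correlations with other organs are given with and without it. Other cerebellum values include it unless stated. Organ identity followed the labels by its defining markers, whose summed level for 5 liver genes was at least 67036 CPM in every CON liver library and at most 831 CPM in any CON kidney library. Over 5 genes each, kidney genes summed to at least 15614 CPM in CON kidney and at most 4.37 in CON liver, cerebellum genes to at least 2295 in CON cerebellum and at most 172 in CON forebrain, and forebrain genes to at least 218 in CON forebrain and at most 78.8 in CON cerebellum. In the cerebellum the liver sum reached 2772 CPM, nearly all of it Ttr, a gene that the choroid plexus also makes, which ran from 0.224 to 2770 CPM over the SD libraries.

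The genes lay in 2 clusters on GRCm38. On the plus strand of chromosome 3 stood Gbp5 (142493978 to 142522344), Gbp7 (142530342 to 142550149), Gbp3 (142560026 to 142573209) and Gbp2 (142620602 to 142638008), with the family gene Gbp2b between the last pair. On the minus strand of chromosome 5 stood Gbp8 (105014150 to 105139540), Gbp9 (105077630 to 105139539), Gbp4 (105115767 to 105139586) and Gbp6 (105270702 to 105293698), with the family genes Gbp10 and Gbp11. Gbp4, Gbp8 and Gbp9 share 60 to 61 exonic bases with one another, which is at most 1.77% of the exonic length of any of them. Of the exonic bases of Gbp7, 637 are shared with another gene of the same strand. All 8 are annotated as protein coding. In the count table they are ENSMUSG00000028270 (Gbp2), ENSMUSG00000028268 (Gbp3), ENSMUSG00000079363 (Gbp4), ENSMUSG00000105504 (Gbp5), ENSMUSG00000104713 (Gbp6), ENSMUSG00000040253 (Gbp7), ENSMUSG00000034438 (Gbp8) and ENSMUSG00000029298 (Gbp9).

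**Figure D1:**
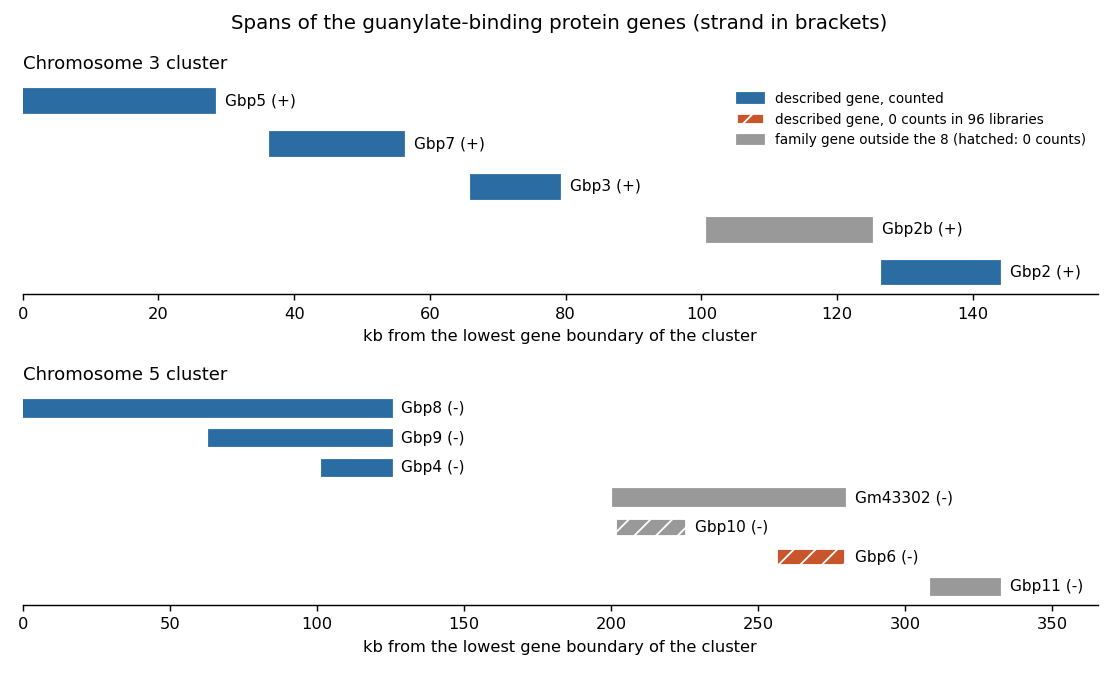
Spans of the guanylate-binding protein genes in the chromosome 3 and chromosome 5 clusters, drawn to scale in kb from the lowest gene boundary, with the strand in brackets. Gbp6 and Gbp10 (hatched) lie over the span of Gm43302 and had 0 counts in all 96 libraries.

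Gbp6 had 0 counts in every one of the 96 libraries, and so did the family gene Gbp10. A count of 0 allows a level of up to 0.0513 to 0.121 CPM, by the limit of 3 counts per library and for counting error only. Of the 5954 exonic bases of Gbp6, 1726 overlap the gene Gm43302 on the same strand, and 70.7% of its 50-base stretches also occur in other genes. The authors kept reads of mapping quality 60, so that absence of Gbp6 RNA and uncounted reads cannot be told apart. Gm43302 itself had 754 counts over all libraries. B2m, the light chain of MHC class I and widely expressed, averaged only 1.27 ± 0.27 CPM in CON liver (standard deviation, n = 12), so that a low count in the table is not by itself a low transcript level. Gbp8 was near the limit of counting outside the liver: it was counted in 66 libraries with 653 counts in all, and passed the filter on low counts in the liver alone. The other 6 genes were counted in all 96 libraries.

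Promoter sequence was at hand from RefSeq (GRCm38.p6) for the chromosome 3 genes, which is 4 of the 8. The windows run from 250 bases before to 50 after each annotated start. They were searched on both strands for TTTC followed after any 2 bases by a second TTTC, the core of the interferon-stimulated response element that interferon regulatory factors bind, and for TTCNNNGAA, the form bound by STAT dimers. The stretches with this doubled TTTC in capitals are printed for comparison, since all 4 genes and Gbp2b have one.
Gbp5: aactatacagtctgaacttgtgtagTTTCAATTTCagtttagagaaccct
Gbp7: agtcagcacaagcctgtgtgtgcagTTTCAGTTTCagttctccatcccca
Gbp3: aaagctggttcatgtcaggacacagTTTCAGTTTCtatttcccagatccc
Gbp2b: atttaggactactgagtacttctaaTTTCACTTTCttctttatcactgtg
Gbp2: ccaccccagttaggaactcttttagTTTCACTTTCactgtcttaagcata

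These lie on the plus strand at chr3:142496744-142496793 for Gbp5, chr3:142530258-142530307 for Gbp7, chr3:142559974-142560023 for Gbp3, chr3:142594685-142594734 for Gbp2b and chr3:142620579-142620628 for Gbp2. The match begins 165 bases before the RefSeq start of Gbp5, 53 before that of Gbp7, 45 before that of Gbp3, 137 before that of Gbp2b and 59 before that of Gbp2. Gbp7 and Gbp3 share the same 10 letters, as do Gbp2b and Gbp2, and Gbp3 has an overlapping second match 39 bases before its start. Of all 27025 genes with such windows, 3.99% hold the motif. TTCNNNGAA occurred in 2 of the 4 genes, Gbp5 and Gbp7, against 9.55% of all genes. In both, one copy has the same 9 letters, shown here in capitals.
Gbp5: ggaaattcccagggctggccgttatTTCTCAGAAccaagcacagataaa
Gbp7: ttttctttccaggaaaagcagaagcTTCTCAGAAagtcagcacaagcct

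These stretches are chr3:142496857-142496905 and chr3:142530224-142530272, with the match 52 and 87 bases before the start. A letter match is a description and not a bound site. The same search found the doubled TTTC in 5 of 5 listed interferon-inducible GTPases with a window, 9 of 16 type I interferon response genes, 4 of 12 interferon-gamma-inducible effectors, 2 of 10 genes of interferon-gamma signalling and 2 of 9 inflammasome and lysis partners. It found it in 1 of 10 T and NK cell markers, in 0 of the other leukocyte and endothelial markers, and in 1 of 5 of the genes named below as closest to the members in profile.

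The members were compared between organs in CON libraries alone. In undisturbed mice the guanylate-binding proteins were low in both brain regions and several times higher in liver and kidney. Per kb of own exon sequence, so that genes of different length can be set side by side, Gbp7 averaged 9.18 ± 2.77 CPM per kb in liver and 7.33 ± 1.87 in kidney against 1.38 ± 0.17 in forebrain and 0.807 ± 0.195 in cerebellum (standard deviation, n = 12 each). Gbp3 followed with 7.37 ± 2.51 CPM per kb in liver and 6.46 ± 1.91 in kidney, where the 12 libraries of the organs overlapped widely. Gbp2, the member best known for recruitment to vacuoles of Toxoplasma, averaged 4.55 ± 1.57 CPM per kb in liver and 5.41 ± 1.77 in kidney. Gbp4 averaged 2.98 ± 1.15 and 3.02 ± 0.92 CPM per kb in these organs, and Gbp5, which promotes NLRP3 inflammasome assembly, 1.56 ± 0.63 and 1.47 ± 0.42. Gbp9 was lower, at 1.38 ± 0.45 CPM per kb in liver and 0.965 ± 0.185 in kidney. The lowest counted member was Gbp8, at 0.257 ± 0.103 CPM per kb in liver and 0.038 ± 0.0265 in kidney.

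The order of the members in the liver was Gbp7, Gbp3, Gbp2, Gbp4, Gbp5, Gbp9 and Gbp8 by mean CPM per kb. Neighbours such as Gbp7 and Gbp3, or Gbp5 and Gbp9, differed by less than 1 standard deviation of either, while Gbp9 and Gbp8 did not overlap between libraries (0.7 to 2.31 against 0.0893 to 0.483 CPM per kb). The order in the kidney was the same. In the forebrain Gbp7 and Gbp3 stood at the same level (1.38 ± 0.17 and 1.37 ± 0.34 CPM per kb), and Gbp4 came next at 0.812 ± 0.235.

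**Figure D2:**
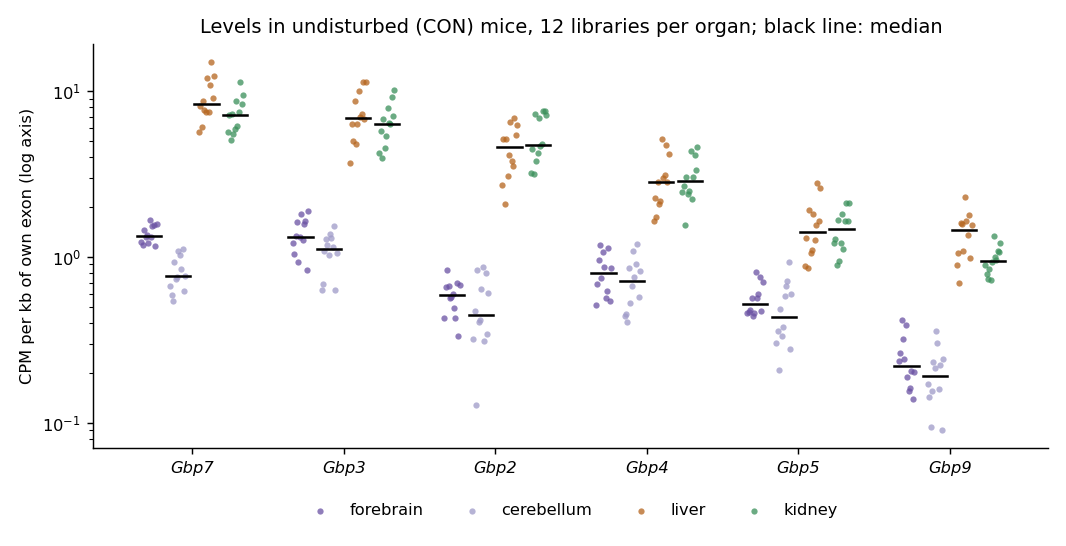
CPM per kb of own exon sequence (log axis) for 6 guanylate-binding proteins in the 12 CON libraries of each organ, with the median as a black line. For each gene the liver and kidney points lie above most or all forebrain and cerebellum points, and the liver and kidney points overlap.

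In the fit over 48 CON libraries a call needed a log2 difference beyond 1 in size besides an edgeR adjusted p under 0.05. The counts are over 6 members, because Gbp8 passed the filter on low counts through its liver libraries (8 of 12 CON forebrain libraries had a count of 0) and is described by its levels above. All 6 were lower in the forebrain than in liver, with log2 differences from -2.02 for Gbp5 to -3.53 for Gbp2 and a median of -3.02 (27.2% of the 23061 genes tested were called lower). All 6 were also lower in forebrain than in kidney (median -2.15, 27.6% of genes), in cerebellum than in liver (median -3.51, 29.2%) and in cerebellum than in kidney (median -2.65, 30.7%). The log2 difference of Gbp7 between forebrain and liver was -3.29 ± 0.11 (SE, edgeR adjusted p = 1.2e-29), and the largest adjusted p over these 4 comparisons was 9.7e-12.

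Between liver and kidney the fitted differences were smaller. Gbp9 was higher in the liver, with a log2 difference of 1.02 ± 0.17 (SE) and an adjusted p of 5.8e-07 in edgeR, which makes 1 of 6 called, beside 15.6% of genes higher in liver. Its difference lay close to the threshold of 1. It was no longer called in 7 of 48 fits that left out a library (0.96 to 1.08), with library sizes alone (0.49) or without the filter (0.95). Gbp7 (0.84 ± 0.10), Gbp3 (0.71 ± 0.13) and Gbp5 (0.60 ± 0.15) were higher in liver with adjusted p of 0.00036 or less, below the fold threshold. Gbp2 (0.29) and Gbp4 (0.47) were higher in liver with scaling by TMM and lower with library sizes alone (-0.24 and -0.06), a scaling that moved the median of all genes between these organs to -0.47.

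Between forebrain and cerebellum 0 of 6 passed both thresholds in edgeR (32.3% of genes in either direction), and 5 of 6 had an adjusted p under 0.05. Gbp7 was higher in forebrain by 0.93 ± 0.11 (4.2e-10), Gbp3 by 0.51 ± 0.15 (0.0017), Gbp5 by 0.42 ± 0.15 (0.015), Gbp9 by 0.47 ± 0.19 (0.024) and Gbp4 by 0.37 ± 0.16 (0.040). Gbp2 did not pass (0.35 ± 0.22, 0.15). Without the cerebellum library that stood apart the differences ran from 0.24 for Gbp2 to 0.89 for Gbp7.

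The family genes outside the 8 had other organ patterns. Gbp2b averaged 30.3 ± 14.7 CPM in CON liver and 0.631 ± 0.322 in kidney (standard deviation, n = 12 each), and was at 0 in all 12 CON forebrain libraries. Gbp11, a polymorphic pseudogene, ran from 4.16 CPM through a median of 7.51 to 27.3 in liver, against 0.08 through 0.252 to 0.665 in kidney. The log2 difference between liver and kidney was 6.10 ± 0.30 for Gbp2b and 5.68 ± 0.38 for Gbp11 (SE), against 0.29 ± 0.19 for Gbp2, the neighbour of Gbp2b on chromosome 3.

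The time of day was examined in CON libraries, to ask whether the basal level of the family followed the circadian cycle. In liver and kidney all 13 gene and organ combinations had their highest mean at CT16, CT20 or CT24, in the subjective night or at its end, and their lowest at CT4, CT8 or CT12. The liver mean of Gbp7 was 34.1 CPM at CT4 and 64.0 at CT20, a ratio of 1.88. Liver Gbp4 went from 14.6 CPM at CT4 to 30.1 at CT16, and liver Gbp8 from 0.513 at CT4 to 1.42 at CT16, the widest ratio of the members in these organs at 2.77. In the kidney Gbp2 went from 9.66 CPM at CT4 to 18.6 at CT24, and Gbp9 had the smallest ratio at 1.47. Each mean rests on 2 libraries. Kidney conditions and times follow the titles, which disagreed with the other label fields in 20 of 24 kidney libraries.

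JTK_CYCLE, a rank test for a 24 h rhythm, called 0 of 25 tests of members at an adjusted p under 0.05, with the lowest adjusted p at 0.38. It called 0% of genes in forebrain and cerebellum, 0.147% in liver and 0.158% in kidney. At an unadjusted p under 0.05 it called 1 of 25, Gbp9 in forebrain at 0.031, where 5.54% of genes were called (2.88% in cerebellum, 12.6% in liver and 6.91% in kidney). A cosine fitted to the counts in edgeR called Gbp4 and Gbp7 in liver (adjusted p = 0.035 and 0.037, 8.79% of genes called) and Gbp7 in kidney (adjusted p = 0.038, 3.93% of genes). It called 0 members in forebrain (0.0997% of genes) and 0 in cerebellum (0.0045%), where the lowest adjusted p of a member were 0.119 and 0.564. A daily rhythm of the members was thus called by one method and not by the other. The kidney tests rest on the conditions and times in the titles.

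**Figure D3:**
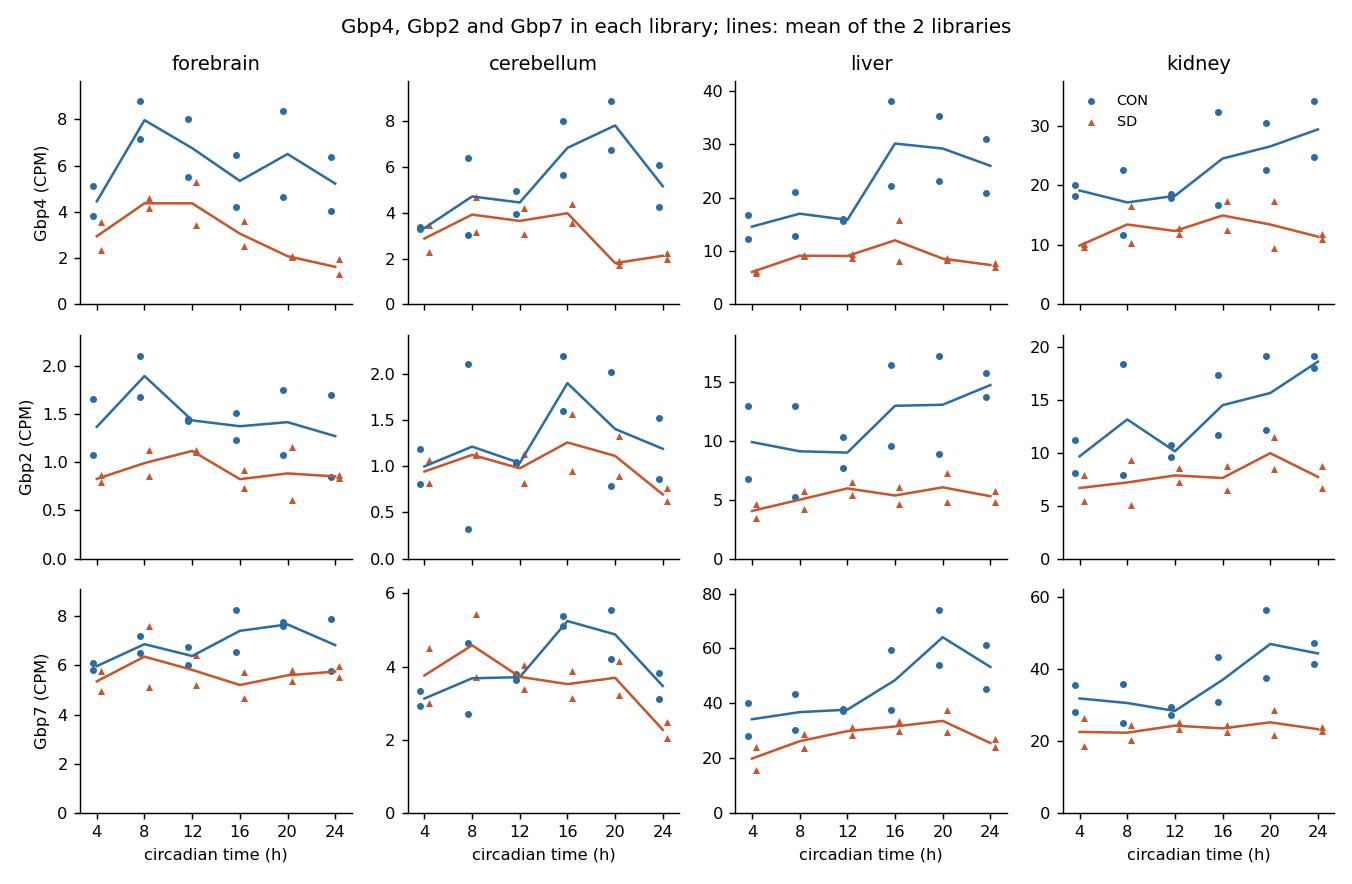
CPM of Gbp4, Gbp2 and Gbp7 (rows) in 4 organs (columns) against circadian time in h, with a point for each of the 2 CON and 2 SD libraries per time and lines through their means. In liver and kidney the SD lines lie below the CON lines at all 6 times, and the cerebellum lines of Gbp7 cross.

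Libraries that bear the same replicate number at the same time and condition were compared between organs. The measure was the log2 difference between replicate 1 and replicate 2, averaged over the 6 members tested in all 4 organs, at 12 combinations of condition and time. Liver and kidney moved together. At CON CT8 replicate 1 was lower in both (-0.91 in liver and -0.65 in kidney), and all 6 members were lower in each. At CON CT16 replicate 1 was higher in both (0.60 and 0.48), again in all 6 members. The signs were the same in 11 of 12 combinations.

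Pearson's r between liver and kidney was 0.954 (n = 12, permutation p = 1e-05, the smallest that 100000 resamples can give, adjusted over 6 organ pairs 6e-05), and Spearman's rho was 0.958 (permutation p = 3e-05, adjusted 0.00018). Without the 2 combinations farthest from the median, CON CT8 and CON CT16, r was 0.916 (permutation p = 0.00037, n = 10). It was 0.957 in CON alone (n = 6, exact permutation p = 0.0014) and 0.941 in SD alone (n = 6, exact permutation p = 0.0042). The other 5 organ pairs had r from 0.386 to 0.526 and adjusted permutation p from 0.159 to 0.215, all two-sided. Their r ran from 0.587 to 0.704 in CON alone and from -0.801 to 0.056 in SD alone (n = 6 each). Without CON CT8, the combination with the library that stood apart, r of cerebellum was 0.483 with forebrain, 0.319 with liver and 0.160 with kidney. Whether the same number marks the same mouse is not given in the sources used here.

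**Figure D4:**
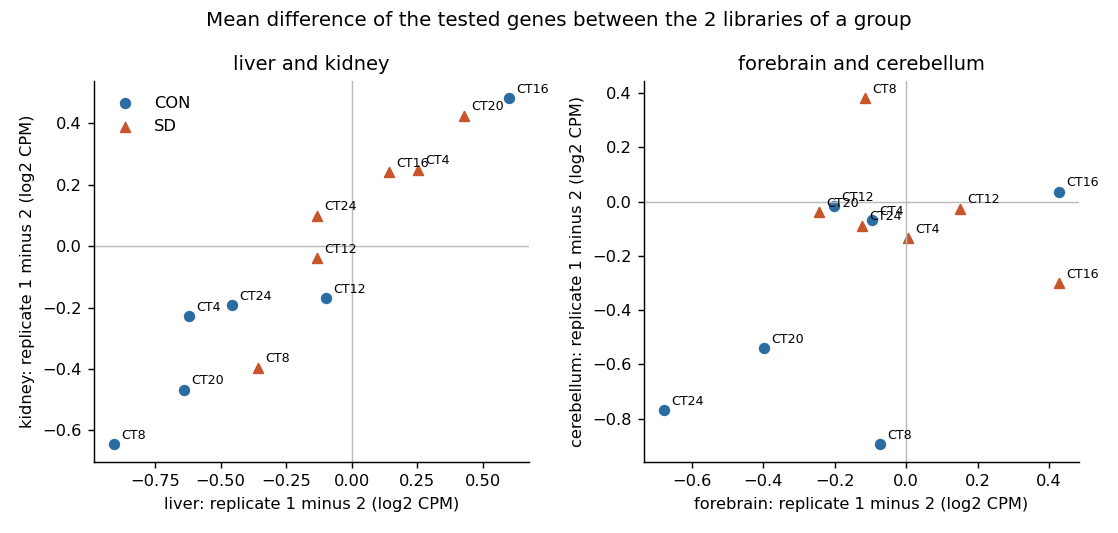
Log2 difference between replicate 1 and replicate 2, averaged over 6 guanylate-binding proteins, in kidney against liver (left) and in cerebellum against forebrain (right), with a point for each of 12 combinations of condition and time. Liver and kidney rise together (r = 0.954), and forebrain and cerebellum scatter more widely (r = 0.386).

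Within an organ the members also varied together over the 12 CON libraries. The median Pearson r over pairs of members was 0.883 in kidney (15 pairs, 0.697 to 0.942), 0.793 in liver (21 pairs), 0.688 in cerebellum (15 pairs) and 0.458 in forebrain (15 pairs, -0.433 to 0.870). These r values are descriptions over libraries that share an organ and a range of times. Of 16974 genes, the 10 closest to the mean member profile, by r averaged over the 4 organs, were Tap2 (0.839), Iigp1 (0.839), Nlrc5 (0.820), Tapbp (0.806), Igtp (0.793), Psmb8 (0.775), Zbp1 (0.774), Tap1 (0.769), Siglec1 (0.764) and Uba7 (0.753). Tap1, Tap2, Tapbp and Psmb8 serve the loading of peptides onto MHC class I, Nlrc5 is the transactivator of MHC class I genes, and Iigp1 and Igtp are immunity-related GTPases. The pan-leukocyte markers ranked 256 (Laptm5, mean r 0.467), 2684 (Coro1a, 0.221) and 3492 (Ptprc or CD45, 0.181). Of the macrophage and microglia markers compared, C1qc ranked 58 (0.604), C1qa 69 (0.589), C1qb 72 (0.584), Csf1r 91 (0.561) and Adgre1 742 (0.365). The others were P2ry12 at 2323 (0.239), Tmem119 at 2374 (0.237), Cx3cr1 at 5534 (0.099) and Itgam at 13896 (-0.188). Of the dendritic cell markers compared, Itgax ranked 473 (0.406), Zbtb46 4337 (0.145) and Flt3 12790 (-0.146). The T and NK cell marker Gzma ranked 3936 (0.161), and the neutrophil markers S100a8 and S100a9 ranked 6110 (0.078) and 6576 (0.062).

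Sleep deprivation was compared with undisturbed controls in each organ. These differences chose the 8 genes, so that the values are a description. In the liver, SD libraries held 44.0% to 67.4% of the CON level, by the fitted difference, for the 7 members that passed the filter on low counts. Gbp4 ran from 12.3 CPM through a median of 21.1 to 38.1 in CON and from 5.92 through 8.52 to 15.9 in SD, a log2 difference of -1.18 ± 0.13 (SE). For Gbp4, 11 of 12 SD libraries lay below the lowest CON library, and the highest SD library overlapped with CON. Gbp5 ran from 5.66 through 9.44 to 18.4 CPM in CON and from 2.63 through 4.32 to 6.51 in SD (-1.13 ± 0.15), with 11 of 12 SD libraries below all CON libraries. Gbp2 ran from 5.23 through 11.6 to 17.2 CPM in CON and from 3.45 through 5.11 to 7.25 in SD (-0.97 ± 0.16), where 6 of 12 SD libraries lay below CON.

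Gbp3 (-0.89 ± 0.13), Gbp9 (-0.81 ± 0.13) and Gbp8 (-1.10 ± 0.21) had log2 differences of similar size in the liver. Gbp7, the most abundant member, had the smallest, at -0.57 ± 0.11, with medians of 41.7 CPM in CON and 28.5 in SD. The family gene Gbp2b was lower by more (-1.65 ± 0.23), and Gbp11 was not (0.19 ± 0.28). The median of the 7 members was -0.97 against 0.01 for all genes. With library sizes alone the all-gene median in liver moved to -0.13, and every member kept its direction.

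**Figure D5:**
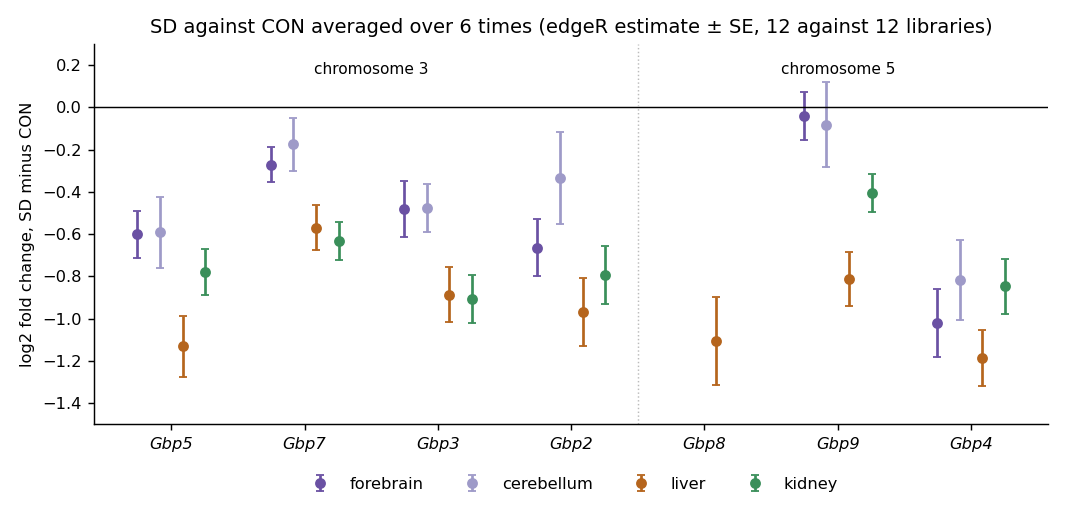
Log2 fold change of SD minus CON with its SE, averaged over time, for each guanylate-binding protein fitted in each organ. Liver values run from -1.18 to -0.57 and kidney values from -0.91 to -0.41, and Gbp9 lies near 0 in both brain regions.

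In the kidney 6 members were fitted and all were lower in SD, at 53.3% to 75.5% of the CON level. Gbp3 ran from 12.8 through a median of 20.7 to 33.0 CPM in CON and from 8.11 through 10.8 to 14.2 in SD (-0.91 ± 0.11, SE), with 8 of 12 SD libraries below all CON libraries. Gbp7 ran from 25.1 through 35.7 to 56.5 CPM in CON and from 18.7 through 23.6 to 28.6 in SD (-0.63 ± 0.09), with 9 of 12 below. As in the liver, both conditions overlapped for every member, where 0.335% of genes in liver and 0.0465% in kidney did not overlap in this direction. Gbp4 (-0.85 ± 0.13), Gbp2 (-0.79 ± 0.14) and Gbp5 (-0.78 ± 0.11) lay between, and Gbp9 was nearest to 0 (-0.41 ± 0.09). Gbp8 did not pass the filter in the kidney, where its medians were 0.125 CPM in CON and 0.036 in SD.

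The kidney values at CT24 do not rest on the label conflict about the condition. There all 6 members were lower in SD, from -0.95 ± 0.20 for Gbp7 and -0.95 ± 0.17 for Gbp9 to -1.39 ± 0.30 for Gbp4 and -1.5 ± 0.23 for Gbp3 (log2, SE, 2 libraries per condition).

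In the forebrain all 6 fitted members were lower in SD, each by less than in the liver. Gbp4 ran from 3.81 through a median of 5.95 to 8.77 CPM in CON and from 1.29 through 2.98 to 5.30 in SD (-1.02 ± 0.16, SE), with 9 of 12 SD libraries below all CON libraries. Gbp2 (-0.66 ± 0.14), Gbp5 (-0.60 ± 0.11), Gbp3 (-0.48 ± 0.13) and Gbp7 (-0.27 ± 0.08) followed. Gbp9 was at -0.04 ± 0.11, with medians of 1.12 CPM in CON and 1.24 in SD.

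In the cerebellum the log2 differences were -0.82 ± 0.19 for Gbp4, -0.59 ± 0.17 for Gbp5, -0.48 ± 0.11 for Gbp3, -0.33 ± 0.22 for Gbp2, -0.17 ± 0.13 for Gbp7 and -0.08 ± 0.20 for Gbp9 (SE). Without the CON CT8 replicate 1 library they were -0.89 for Gbp4, -0.67 for Gbp5, -0.48 for Gbp3, -0.44 for Gbp2, -0.23 for Gbp7 and -0.13 for Gbp9. Gbp4 had the lowest value in both brain regions and in the liver, and Gbp9 the value nearest to 0 in forebrain, cerebellum and kidney.

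The difference between conditions is also given at each time, with 2 libraries per condition. Whether it differed between times was not tested. The median log2 difference of the members was smallest at CT12 in forebrain, liver and kidney (-0.12, -0.44 and -0.32). It was -1.28 at CT24 in liver and -1.23 at CT24 in kidney, the lowest of the 6 times in each. In the liver all 7 members were lower in SD at each of the 6 times. In the kidney all 6 had fitted differences below 0 at each time, but Gbp9 at CT8 was at -0.0038 ± 0.17 (SE). The mean CPM of Gbp9 in kidney was lower in SD at 5 of the 6 times. In the cerebellum the members were mixed in sign at CT4, CT8 and CT12 and all 6 were lower at CT16, CT20 and CT24.

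Since the contrast of SD and CON chose the members, their counts past an adjusted p under 0.05 in it are no evidence, and nothing is read from them. Averaged over time, edgeR called 7 of 7 fitted members lower in liver (8.8% of 19708 genes), 6 of 6 in kidney (2.12% of 21528), 1 of 6 in forebrain (Gbp4, 0.0303% of 23078) and 0 of 6 in cerebellum (0% of 22218). DESeq2 called 3 in forebrain (Gbp2, Gbp4 and Gbp5) and 0 in cerebellum. Gbp4 in forebrain was not called without the SD CT24 replicate 2 library, and Gbp9 in kidney not with library sizes alone. At single times edgeR called Gbp4 at CT20 in forebrain (-1.65, 0.433% of genes), Gbp4 at CT24 in liver (-1.67, 0.198%), Gbp3 and Gbp9 at CT24 in kidney (0.265%) and 0 members in cerebellum. These single-time counts are over pairs of gene and time. With the filter, 36, 36, 42 and 36 pairs were fitted in forebrain, cerebellum, liver and kidney. The counts moved with the method: DESeq2 called 2, 1, 10 and 10 in these organs, and edgeR without the filter 2, 3, 27 and 25. The share of all genes called with DESeq2 or without the filter was not computed, so that these counts have no baseline. At the remaining times edgeR called 0.00507% of genes at CT4 and 0.386% at CT8 in liver, 0.00465% at CT4, 0.00465% at CT8 and 0.0139% at CT20 in kidney, and 9.73% at CT8 in cerebellum, the time of the library that stood apart.

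Other genes of the same pathway were read from lists. Of the 12 tested genes of interferon-gamma signalling, 8 were lower past the threshold in liver and 5 in kidney, and the list medians were -0.49 and -0.41. Of all genes, 8.8% in liver and 2.12% in kidney were lower past it, the share to set beside each list count here and below. In both organs 0 genes of the interferon, inflammasome, leukocyte and endothelial lists were higher past the threshold, beside 9.42% of all genes in liver and 0.181% in kidney. Ciita, the transactivator of MHC class II, was at -1.06 ± 0.12 in liver and -0.90 ± 0.13 in kidney (log2, SE), and Irf1 at -0.53 ± 0.11 and -0.62 ± 0.10. Nlrc5 was lower past the threshold in the forebrain as well (-0.98 ± 0.15), where it was the 1 gene of 10 tested, beside 0.0303% of all genes. The GTPases induced along with the family, which are immunity-related GTPases and the very large GTPase Gvin1, were lower in 6 of 6 tested in both liver (median -0.80) and kidney (median -1.20), with Igtp at -1.05 ± 0.18 and -1.41 ± 0.16.

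Interferon-gamma-inducible effectors were lower past the threshold in 14 of 15 tested genes in liver and 12 of 15 in kidney, among them Tap1 (-0.69 ± 0.12 and -1.05 ± 0.12) and the chemokine Cxcl10 (-0.91 ± 0.20 and -1.17 ± 0.15). Type I interferon response genes were lower in 12 of 22 in liver and 16 of 21 in kidney, among them the nucleic acid sensor Zbp1 (-0.99 ± 0.17 and -0.95 ± 0.14). Of the inflammasome and lysis partners, 9 of 10 were lower in liver and 5 of 10 in kidney, and the DNA sensor Aim2 was at -0.66 ± 0.10 and -0.79 ± 0.15. In the cerebellum 0 genes of these 5 lists were past the threshold in edgeR, where 0% of all genes were lower past it. In the forebrain Nlrc5 was the 1 gene past it, beside 0.0303% of all genes.

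Part of the leukocyte markers were lower past the threshold in liver and kidney, beside 8.8% and 2.12% of all genes. The 3 pan-leukocyte markers Ptprc, Coro1a and Laptm5 were lower past it in both (medians -0.76 and -0.56). Their summed level ran from 137.0 to 260 CPM in CON liver and from 66.0 to 120 in SD liver. It ran from 65.2 to 116 CPM in CON kidney and from 44.5 to 64.2 in SD kidney. The summed levels of the conditions did not overlap in either organ, narrowly in the kidney. Of single genes, 0.335% in liver and 0.0465% in kidney did not overlap in this direction. The kidney conditions follow the titles, with which other label fields disagreed in 10 libraries. T and NK cell markers were lower in 8 of 11 in liver, where their sum was 22.3 to 44.1 CPM in CON and 9.54 to 20.7 in SD, and in 6 of 11 in kidney, with sums of 13.4 to 31.2 and 9.25 to 18.7. The cytotoxic granule gene Gzma was at -1.36 ± 0.19 in liver and -1.13 ± 0.23 in kidney. Macrophage markers were lower in 7 of 10 and 5 of 9, dendritic cell markers in 3 of 4 in each organ, B cell markers in 4 of 4 and 0 of 4, and neutrophil markers in 3 of 3 and 0 of 3. Endothelial markers were lower in 1 of 4 in each organ, with list medians of -0.08 in liver and -0.05 in kidney. No list of leukocyte markers had a gene past the threshold in forebrain or cerebellum, where 0.0303% and 0% of all genes were lower past it. Of the T and NK cell markers, 3 of 11 were tested in forebrain and 2 of 11 in cerebellum, with medians of -1.35 and -0.98. Of the B cell markers 0 of 4 were tested in either region, and the macrophage and microglia medians were -0.09 and -0.10. The part of leukocyte markers in the values of the guanylate-binding proteins was not tested.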

How the data were processed

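The 96 libraries were made from total RNA. The study's methods name a stranded TruSeq protocol, removal of ribosomal RNA, and the NEB Next Ultra II Directional kit for the strand-specific libraries. According to the submitters' processing notes and the study's methods, adapters were removed by Trim Galore 0.6.4 and HISAT2 2.1.0 placed the reads on GRCm38. SAMtools 1.9 left alignments of mapping quality 60, and featureCounts 1.6.4 assigned them to genes by strand. The deposited values are whole-number counts per feature, and the authors applied no normalization to them. The 54833 features were named from GENCODE M21. All columns of the count table were mapped to samples, and the 96 single-library files held the same counts.

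The members and the gene lists were chosen with earlier results of these data known. Groups followed the sample titles. CPM is the count over the library total. SD was compared with CON in each organ with edgeR 4.0.16 in R 4.3.3 (quasi-likelihood test, TMM scaling, filterByExpr over the 12 groups, circadian time and condition as terms, Benjamini-Hochberg adjustment), averaged over time and at each time. Organs were compared over the 48 CON libraries with an absolute log2 fold change over 1, and time of day was tested with JTK_CYCLE on CPM (period 24 h). Agreement between organs used permutation tests with 100000 resamples and a pseudocount of 0.1 CPM. Analyses ran in Python 3.11.15, and each test was tested on simulated data. Alternatives were library sizes alone, no filter, DESeq2 1.42.0, the replicate number as a block, a cosine in place of JTK_CYCLE, and leaving out each library.

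Named genes were the 8 members, the family genes Gbp2b, Gbp10 and Gbp11 as values, the 10 genes closest to the mean member profile in CON, and from each list up to 4 genes of largest change past the threshold in kidney or forebrain. Genes outside this rule (Gm43302, Csf1r, P2ry12, Tmem119, Cx3cr1, Itgam and Ttr) and the markers given by rank were chosen after their values were seen. Totals of 24.76 M to 58.49 M counts give a count of 0 an upper limit of 0.0513 to 0.121 CPM. Exonic lengths per kb leave out bases shared with another gene.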

Additional observations from a re-analysis of the deposited data

How the results depend on the processing

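The contrast of SD and CON chose the members. How steady their counts in it were is therefore a description of the settings and no evidence about the members. The number of members past an adjusted p under 0.05 as lower in SD, averaged over time, was 7 in liver with library sizes alone. It was also 7 without the filter, with DESeq2 and with the replicate block. On leaving out each library in turn it ranged from 7 to 7. It ranged from 6 to 7 in kidney, from 0 to 2 in forebrain and from 0 to 0 in cerebellum on leaving out libraries. In the forebrain it was 2 without the filter and 3 with DESeq2 (Gbp2, Gbp4 and Gbp5). Counts past that threshold at single times, over pairs of gene and time, moved most. For settings other than the main one no share of all genes was computed. Without the filter on low counts they were 2 in forebrain, 3 in cerebellum, 27 in liver and 25 in kidney, with DESeq2 2, 1, 10 and 10, and with library sizes alone 4 in liver and 1 in kidney. On leaving out libraries they ranged from 0 to 2 in forebrain, 0 to 2 in cerebellum, 0 to 3 in liver and 0 to 5 in kidney. Without the cerebellum CON CT8 replicate 1 library the cerebellum count was 1. The cause of these moves was not tested. The log2 difference of Gbp9 crossed 0 on leaving out libraries in forebrain (-0.11 to 0.01) and cerebellum (-0.19 to 0.05).

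The organ counts, here with Gbp8 among 7 members, ranged from 6 to 7 for each brain region against liver and kidney, from 0 to 0 between forebrain and cerebellum and from 0 to 2 between liver and kidney. Between liver and kidney the count was 1 with library sizes alone and 1 without the filter, and with library sizes alone Gbp2 (-0.24) and Gbp4 (-0.057) changed sign. Time of day stayed at 0 to 0 by JTK_CYCLE on leaving out libraries, against 2 in liver and 1 in kidney with the cosine.

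The title numbers were not taken as a pairing in the main fits. Over genes, at each of 12 combinations of condition and time, the correlation of same numbers between liver and kidney ran from -0.07 to 0.40. Its median was 0.09, and 6 of 12 were over 0.1. The r of 0.954 given above is another measure, taken over the 12 combinations for the mean of 6 members. With the replicate block the SD counts were 1 in forebrain, 0 in cerebellum, 7 in liver and 6 in kidney, as without it, and the organ counts kept their values. With the cosine and the replicate block 2 members were called in liver and 2 in kidney (Gbp3 and Gbp7). A block of time and number together, chosen after seeing the data, left the 6 organ counts as they were. Gbp6 had 0 counts, and Gbp8 was near the counting limit outside the liver.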
